A study of Mus musculus with 40 samples.

Results

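The genes described here are 9 genes known as markers of quiescent hepatic stellate cells, Lrat, Reln, Hhip, Ngfr, Vipr1, Ecm1, Colec11, Hgf and Angptl6. They were chosen by symbol as the rows of the deposited count table whose identifiers name these genes, so they are 9 of 21500 genes, and all 9 were among the 13993 genes with enough counts to be tested. Sequenced RNA came from whole livers of 20 mice, all males of the strain C57BL/6J, in 2 groups of 10. Every mouse ate CDAA-HFD from 8 weeks of age, a diet without added choline in which protein is given as amino acids, with 60% of its energy from fat and 0.1% methionine. After 4 weeks 10 mice stayed on this diet alone for 8 more weeks (the CDAA-HFD mice, numbered 31 to 40), and the other 10 received BLT1i at 90 mg/kg in the same diet for those 8 weeks (the BLT1i mice, numbered 71 to 80). All mice were 20 weeks old at sampling, and no group on a control diet was analysed here. The labels do not expand BLT1i, a name generally read as an inhibitor of the leukotriene B4 receptor BLT1.

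Hepatic stellate cells lie between hepatocytes and the sinusoidal endothelium. In a healthy liver they are quiescent and store vitamin A as retinyl esters, and they release signals for their neighbours. In injured liver they are known to activate, to lose their vitamin A droplets and to lay down fibrillar collagen, and the diet used here is a standard way to bring this about in mice. Markers of quiescence and collagen genes are therefore often read side by side.

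In these livers 1 of the 9 genes, Vipr1, changed with BLT1i. It rose 1.25-fold, from a mean of 33.1 ± 3.65 to 41.4 ± 5.06 CPM (counts relative to the TMM-scaled library size, SD, n = 10 per group; edgeR's quasi-likelihood test with Benjamini-Hochberg adjustment over all tested genes, adjusted p = 0.00604). Lrat, the enzyme that makes retinyl esters, stood at 62.7 ± 10.03 and 62.4 ± 6.79 CPM, and Reln at 455 ± 41.1 and 463 ± 27.5 CPM. Among all tested genes 5.63% passed the threshold of 0.05, and 3.65% passed as higher with BLT1i, so 1 of 9 is to be read against that background. Across the mice within groups, Hhip and Vipr1 had negative correlations with fibrillar collagen genes (r of -0.609 and -0.510), but neither slope passed the test over all genes.

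The promoter windows of the genes on which these statements turn are shown here, as RefSeq gives them for the build GRCm38.p6. Each window runs from 250 bases before to 50 bases after the annotated start, on the strand of the gene. Hhip and Vipr1 have the largest fold changes among the 9, and Lrat the smallest. Capitals mark GC boxes (GGGCGG, or CCGCCC where it lies on the other strand). Vipr1 lies at chr9:121642466-121642765 on the plus strand, Hhip at chr8:80057959-80058258 on the minus strand and Lrat at chr3:82903925-82904224 on the minus strand.
Vipr1: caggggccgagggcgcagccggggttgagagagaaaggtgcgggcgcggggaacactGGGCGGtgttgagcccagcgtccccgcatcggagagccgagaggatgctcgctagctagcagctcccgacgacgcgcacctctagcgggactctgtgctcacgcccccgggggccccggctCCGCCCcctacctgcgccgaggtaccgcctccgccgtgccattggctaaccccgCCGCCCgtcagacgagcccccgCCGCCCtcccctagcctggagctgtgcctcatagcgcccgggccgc
Hhip: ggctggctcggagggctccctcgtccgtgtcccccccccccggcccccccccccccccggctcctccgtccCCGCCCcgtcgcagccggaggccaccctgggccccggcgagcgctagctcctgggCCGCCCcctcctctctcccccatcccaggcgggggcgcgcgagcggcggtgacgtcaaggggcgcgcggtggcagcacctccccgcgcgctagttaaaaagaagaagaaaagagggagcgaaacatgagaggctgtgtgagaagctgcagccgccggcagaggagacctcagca
Lrat: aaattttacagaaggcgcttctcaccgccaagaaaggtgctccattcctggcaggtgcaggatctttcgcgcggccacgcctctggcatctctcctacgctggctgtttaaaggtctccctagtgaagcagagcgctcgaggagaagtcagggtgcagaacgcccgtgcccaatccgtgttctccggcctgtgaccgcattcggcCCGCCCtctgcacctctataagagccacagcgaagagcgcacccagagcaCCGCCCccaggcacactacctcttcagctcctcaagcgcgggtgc

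The Vipr1 window holds 4 GC boxes, and those of Hhip and Lrat hold 2 each. Among the other members Reln has 6, Ngfr 4 and Ecm1 1, whereas the windows of Hgf, Angptl6 and Colec11 have none. Among the 32851 mouse promoters that RefSeq gives 35.7% hold at least 1 such box. The GC content is 73.7% in the windows of Vipr1 and Hhip and 60.7% in that of Lrat, against a median of 52.7% over those promoters. The GC box thus occurs in the promoter of the gene that rose as well as in those of genes that did not pass.

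The level of each gene in whole liver can be set beside the others only per length, for which the FPKM values (fragments divided by gene length and by library size) that the authors rounded to whole numbers were used. Ecm1 was highest, at 60 to 72 with a median of 63.5 over the 20 mice, and its range did not meet that of Reln (33 to 46, median 39). Hgf followed at 27 to 38 (median 31.5). Its range met that of Reln, although Reln was above Hgf in each of the 20 mice. Colec11 lay at 16 to 25 (median 23.5), below every value of Hgf and above every value of Lrat.

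Lrat had rounded FPKM values of 8 to 13 (median 10) and Vipr1 of 5 to 10 (median 7). These ranges overlap, with Lrat above Vipr1 in 18 mice. Ngfr ran from 3 to 5 (median 4), with Vipr1 above it in all 20 mice, and Angptl6 from 1 to 4 (median 2), below Ngfr in 19. Hhip is listed at 0 in all 20 mice because of the rounding, while its counts ran from 11 to 60 per mouse. The lowest genes of the 9, Hhip and Angptl6, thus rest on the fewest reads. Ecm1, Hgf and Angptl6 are known to be made by other cells as well as stellate cells, and the tissue was not sorted. The cells from which the RNA of Vipr1 and the other members came were therefore not determined. In whole liver, fewer cells of a type and less RNA per cell cannot be told apart.

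Vipr1 encodes a receptor for vasoactive intestinal peptide (VIP) and the related peptide PACAP, which signals through the stimulatory G protein. In the CDAA-HFD mice its level ran from 29.0 to 41.4 CPM with a median of 32.99, and in the BLT1i mice from 35.02 to 49.6 CPM with a median of 42.3. All 10 BLT1i mice lay above the median of the CDAA-HFD mice and 6 lay above the highest of them, mouse 32, so the groups overlap. The CDAA-HFD mouse next to it was at 35.14 CPM, just above the lowest BLT1i mouse. The log2 fold change was 0.32 ± 0.07 (SE, 95% confidence interval 0.18 to 0.46; edgeR adjusted p = 0.00604). The call was kept when any single mouse was left out (adjusted p from 0.000873 to 0.0151).

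The call of Vipr1 was lost in 3 alternative fits. On log2 of the rounded FPKM plus 1 the difference was 0.27 (limma adjusted p = 0.0659). With an immediate early gene score as covariate it was 0.36 (edgeR p = 0.00784, adjusted p = 0.233). In that fit 87 genes passed in all, against 788 in the main fit. The immediate early gene score, the mean log2 CPM of 12 rapidly induced genes such as Jun and Egr1, was itself higher by 0.89 in the BLT1i mice, and 8 of these mice lay above every CDAA-HFD mouse. The fit with it thus separates the score from group only poorly. Of the 12 genes in the score 10 rose and none fell. Jun and Egr1, which encode transcription factors, rose 1.64-fold and 2.82-fold (edgeR adjusted p = 1.04e-05 and 5.82e-05). With a score of sinusoidal endothelial markers, chosen as a covariate after seeing the data, the difference of Vipr1 was 0.19 (edgeR adjusted p = 0.289). With that covariate 154 genes passed in all.

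Of these 10 endothelial markers 4 rose and none fell. Kdr, the main receptor for vascular endothelial growth factor, rose by 0.21 ± 0.04 on the log2 scale (SE; adjusted p = 0.00344), as did Clec4g, Oit3 and Ptprb by 0.15 to 0.23. Of the 10 log2 fold changes 9 were above 0. Stab1 went the other way, at -0.14 ± 0.05, and did not pass (SE; edgeR adjusted p = 0.107). The summed level of the 10 was 1037 to 1194 CPM in CDAA-HFD mice against 1091 to 1255 CPM in BLT1i mice. Their part in the rise of Vipr1 was not tested. Their score was itself higher by 0.13 in the BLT1i mice, 6 of which lay above every CDAA-HFD mouse. The fit with this covariate thus separates the score from group only poorly.

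The ligand genes Vip and Adcyap1 and the second receptor Vipr2 had too few counts to be tested. Of the 5 other genes of the VIP pathway that were tested none passed. The receptor-modifying proteins Ramp3 and Ramp2 had the lowest p, at -0.49 ± 0.22 and 0.07 ± 0.06 on the log2 scale (SE; edgeR adjusted p = 0.206 and 0.572). The median log2 fold change of the 5 was 0.05, while that of all tested genes was -0.01.

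Hhip encodes the hedgehog-interacting protein, which binds hedgehog ligands at the cell surface and so limits their signal. It ran from 0.434 to 1.43 CPM in the CDAA-HFD mice (median 0.878) and from 0.865 to 2.67 CPM in the BLT1i mice (median 1.20). The groups overlap broadly, and BLT1i mice 72 and 79 stand highest, at 2.50 and 2.67 CPM. The mean was 0.884 ± 0.321 CPM against 1.42 ± 0.652 CPM (SD, n = 10 per group). The log2 fold change of 0.69 ± 0.24 (SE, 95% confidence interval 0.20 to 1.19) was the largest of the 9, but it did not pass (edgeR adjusted p = 0.0891).

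Of 12 tested hedgehog genes 1 rose and none fell. Ptch1, the receptor that hedgehog ligands bind and also a target gene of the pathway, rose 1.12-fold from 65.0 ± 5.16 to 73.1 ± 4.21 CPM (adjusted p = 0.0214). Gli2, a transcription factor of the pathway, had a log2 fold change of -0.32 ± 0.18 and the co-receptor Gas1 of -0.13 ± 0.08 (SE; edgeR adjusted p = 0.339 and 0.354). Shh was too low to be tested, and the median over the 12 genes was -0.04.

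Ngfr encodes the low-affinity neurotrophin receptor. Its level ran from 13.3 to 17.1 CPM in the CDAA-HFD mice (median 15.8) and from 13.8 to 19.8 CPM in the BLT1i mice (median 18.03). As with Vipr1, 6 BLT1i mice lay above the highest CDAA-HFD mouse, but others reached down to the low end of that group. On the log2 scale the fold change was 0.15 ± 0.06 (SE, 95% confidence interval 0.02 to 0.28; edgeR adjusted p = 0.171).

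Of 8 tested neurotrophin genes 1 fell and none rose. Ntrk2, the receptor for brain-derived neurotrophic factor, fell to a fold of 0.682 (43.7 ± 9.25 CPM in CDAA-HFD and 29.8 ± 7.16 CPM in BLT1i mice, adjusted p = 0.022). Its ligand Bdnf gave -0.35 ± 0.16 and the sorting receptor Sort1 -0.08 ± 0.04 on the log2 scale (SE; edgeR adjusted p = 0.203 and 0.296). The median of the 8 was -0.04.

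Lrat encodes lecithin retinol acyltransferase, which turns retinol into the retinyl esters of the vitamin A droplets. It ran from 49.8 to 84.7 CPM in the CDAA-HFD mice (median 63.8) and from 52.6 to 72.3 CPM in the BLT1i mice (median 63.1). The BLT1i mice lie wholly within the range of the CDAA-HFD mice, whose highest value belongs to mouse 33. The log2 fold change was -0.01 ± 0.08 (SE), and its 95% confidence interval from -0.17 to 0.16 bounds a change in either direction (edgeR adjusted p = 0.982).

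Of 13 tested retinoid genes none rose and 1 fell. The gene that fell was Aldh1a2, which makes retinoic acid from retinaldehyde, at 4.41 ± 1.12 against 3.23 ± 0.488 CPM (log2 fold change -0.45 ± 0.13, SE; adjusted p = 0.0387). The reductases Rdh11 and Dhrs3, which act between retinol and retinaldehyde, gave 0.18 ± 0.06 and -0.13 ± 0.05 and did not pass (edgeR adjusted p = 0.0842 and 0.143). The median of the 13 was 0.05.

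Reln encodes reelin, a large secreted glycoprotein best known as a guide of migrating neurons. Its level ran from 410.5 to 542.6 CPM in the CDAA-HFD mice (median 447.4) and from 424.6 to 505.1 CPM in the BLT1i mice (median 468.8), so that the second range lies inside the first. Its fold change on the log2 scale was 0.03 ± 0.05 (SE, 95% confidence interval -0.07 to 0.13; edgeR adjusted p = 0.817). None of the 6 tested reelin pathway genes passed. The reelin receptor gene Vldlr had a log2 fold change of 0.30 ± 0.11 and the adaptor Crk of 0.09 ± 0.04 (SE; edgeR adjusted p = 0.107 and 0.154), with a median of 0.02 over the 6.

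Colec11 encodes a collectin, a sugar-binding lectin that starts the lectin pathway of complement together with the MASP proteases. It ran from 25.5 to 42.4 CPM in the CDAA-HFD mice (median 36.8) and from 33.4 to 41.9 CPM in the BLT1i mice (median 38.98). Mouse 36 alone extends the CDAA-HFD range downwards, the next lowest mouse being at 35.01 CPM. The log2 fold change was 0.07 ± 0.06 (SE, 95% confidence interval -0.07 to 0.20; edgeR adjusted p = 0.627), and it was 0.020 without mouse 36. In the lectin pathway 1 of 7 tested genes rose and none fell. Fcna, a ficolin, rose 1.53-fold from 8.63 ± 2.25 to 13.3 ± 3.63 CPM (adjusted p = 0.0237), Mbl2 gave -0.32 ± 0.11 and Colec10, which forms complexes with Colec11, 0.40 ± 0.15 on the log2 scale (SE; edgeR adjusted p = 0.109 and 0.141). The median over the 7 genes was 0.02.

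Hgf encodes hepatocyte growth factor, a signal from stellate cells to the receptor Met on hepatocytes. Its level ran from 92.6 to 116.7 CPM in the CDAA-HFD mice (median 106.9) and from 98.2 to 125.2 CPM in the BLT1i mice (median 105.5), with the groups covering one another. BLT1i mice differed from CDAA-HFD mice on the log2 scale by 0.02 ± 0.05 (SE, 95% confidence interval -0.08 to 0.12; edgeR adjusted p = 0.876). Of 9 tested HGF pathway genes 1 fell and none rose. St14, a membrane protease known to cut HGF to its active form, fell by 0.33 on the log2 scale (SE 0.09; adjusted p = 0.0307). The protease Plau and the receptor Met gave -0.13 ± 0.07 and 0.05 ± 0.03 (SE; edgeR adjusted p = 0.303 and 0.396). The median of the 9 was -0.01.

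Ecm1 encodes a secreted matrix protein that is known in mouse liver to hold latent TGF-beta in its inactive state. It ran from 113.5 to 140.2 CPM in the CDAA-HFD mice (median 117.7) and from 117.7 to 136.2 CPM in the BLT1i mice (median 127.0). Of the BLT1i mice 9 lay above the median of the CDAA-HFD mice, but none above mouse 32, the highest. The log2 fold change was 0.06 ± 0.04 (SE, 95% confidence interval -0.02 to 0.15; edgeR adjusted p = 0.401).

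Angptl6 encodes an angiopoietin-like protein secreted by the liver. It ran from 2.77 to 6.29 CPM in the CDAA-HFD mice (median 4.74) and from 3.25 to 8.64 CPM in the BLT1i mice (median 4.71). The medians nearly coincide, and the highest value belongs to BLT1i mouse 72, which was also high in Hhip. Between the groups the log2 fold change was 0.13 ± 0.16 (SE, 95% confidence interval -0.20 to 0.46; edgeR adjusted p = 0.725), and it was 0.018 without BLT1i mouse 72, 0.083 without BLT1i mouse 79 and 0.068 without CDAA-HFD mouse 36. In the same family Angptl8, a secreted regulator of lipoprotein lipase, gave -0.42 ± 0.26 on the log2 scale and did not pass (SE; edgeR adjusted p = 0.419).

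**Figure D1:**
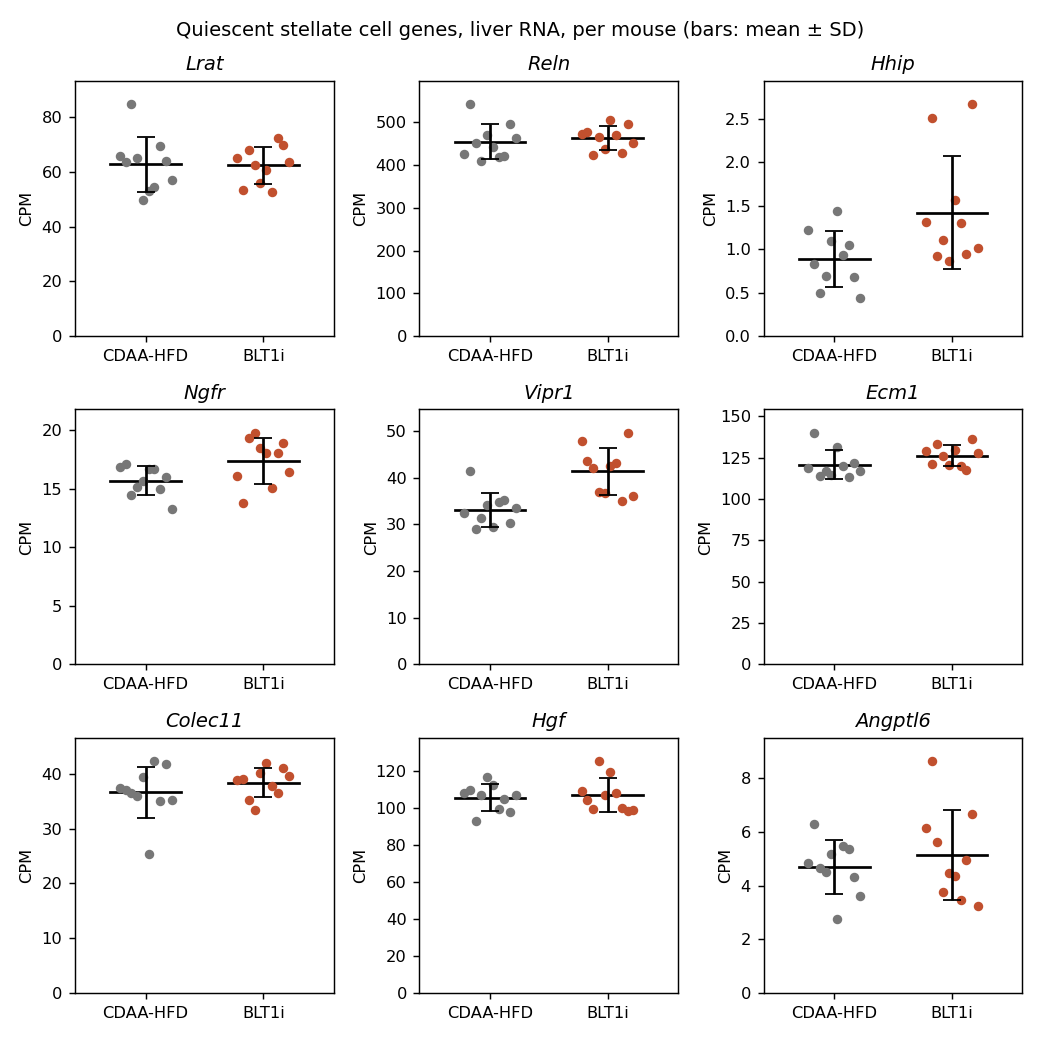
Level of each of the 9 genes in CPM (vertical axis, from 0) in the 10 CDAA-HFD mice (grey) and the 10 BLT1i mice (red), 1 point per mouse, with bars for mean ± SD. For Vipr1, 6 BLT1i mice lie above the highest CDAA-HFD mouse, at 41.4 CPM, while the groups overlap throughout for Lrat, Reln, Hgf and Angptl6.

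Taken as a list, 8 of the 9 genes had a log2 fold change above 0 and Lrat one just below it. The median over the 9 was 0.07, and over all tested genes it was -0.01, with 46% of genes above 0. An unadjusted p of at most 0.05 was reached by Vipr1, Hhip and Ngfr, 3 of 9, against 19.7% of all tested genes. The split of the called genes, 511 higher and 277 lower, depended on the scaling, with 443 and 401 under upper-quartile scaling and 391 and 540 with library totals alone. With library totals alone the log2 fold changes of Reln and Hgf were just below 0, at -0.001 and -0.01, while that of Vipr1 was 0.29 (edgeR adjusted p = 0.0117).

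A second list of 20 stellate cell genes that are not among the 9 was tested in the same fit, and all 20 were detected well enough to test. Of these 1 rose, 1 fell and 18 did not pass, with a median log2 fold change of 0.003. The gene that rose was Fcna, named above in the lectin pathway. The cells from which its RNA came were not determined, since the tissue was not sorted. Prelp, a matrix proteoglycan, fell to a fold of 0.875 (387 ± 25.7 CPM in CDAA-HFD and 338 ± 27.4 CPM in BLT1i mice, edgeR adjusted p = 0.0165). Pparg, a nuclear receptor linked to quiescence of stellate cells, stood at 20.3 ± 2.80 and 23.4 ± 1.38 CPM (log2 fold change 0.20 ± 0.06, SE; edgeR adjusted p = 0.0573). With the mean of these 20 genes as a covariate Vipr1 differed by 0.32 (edgeR adjusted p = 0.00606).

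**Figure D2:**
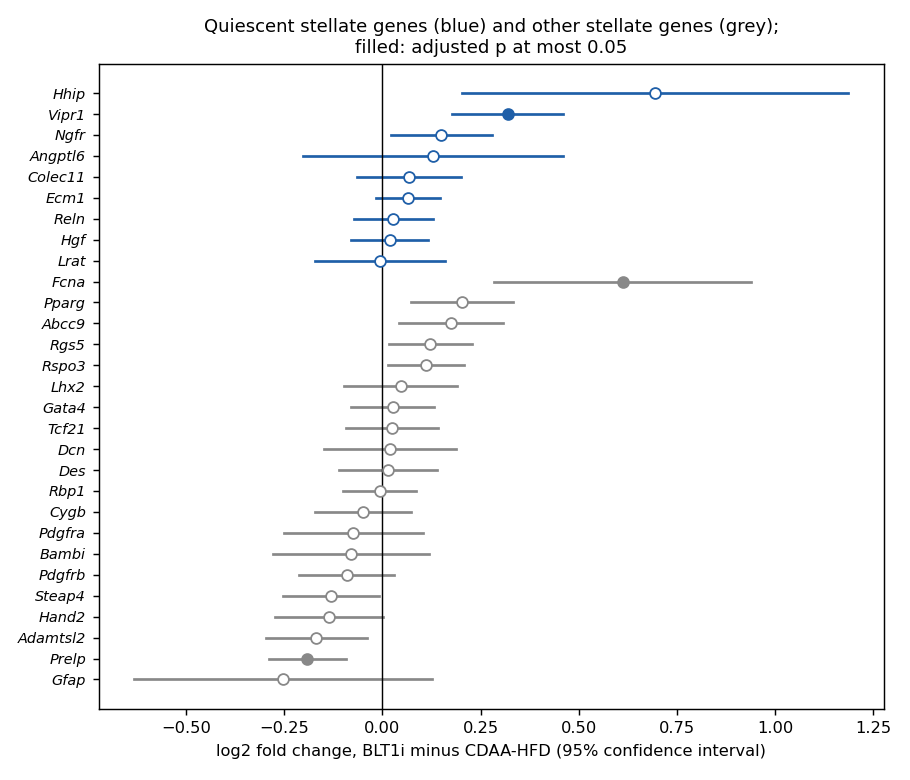
Log2 fold change with 95% confidence interval (horizontal axis) for the 9 genes (blue) and 20 other stellate cell genes (grey), filled where the adjusted p was at most 0.05. Vipr1, at 0.32, is the filled point among the 9, and Fcna and Prelp are those among the others.

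Collagen and activation genes gave mostly negative values in the same comparison. None of the 5 fibrillar collagen genes Col1a1, Col1a2, Col3a1, Col5a1 and Col5a2 passed, and their median log2 fold change was -0.16. Col1a1, Col1a2 and Col3a1 gave -0.24 ± 0.08, -0.21 ± 0.08 and -0.16 ± 0.06 (SE; edgeR adjusted p = 0.0808, 0.101 and 0.128). Of 16 collagen genes of several classes 3 fell and none rose. Col8a1, Col4a2 and Col6a2 fell by 0.37, 0.15 and 0.25 on the log2 scale (SE 0.07, 0.04 and 0.07; edgeR adjusted p = 0.00306, 0.0182 and 0.0453). Of 17 tested genes of activated stellate cells 1 fell and 1 rose, with a median log2 fold change of -0.15. Lox, a collagen cross-linking enzyme, fell to a fold of 0.839 and Tagln, a smooth muscle cytoskeletal protein, rose 1.18-fold (edgeR adjusted p = 0.0475 and 0.0133).

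Markers of other liver cells were tested in the same way. Among 10 hepatocyte markers Pck1, the enzyme that commits carbon to gluconeogenesis, rose 1.53-fold (adjusted p = 0.0441) and none fell, and the summed level was 71566 to 89548 CPM in CDAA-HFD mice against 72985 to 88952 CPM in BLT1i mice. None of 10 macrophage markers passed, and the list was split, with 4 of 10 log2 fold changes above 0. Trem2, a receptor of lipid-associated macrophages, had the lowest p at -0.18 ± 0.05, while the Kupffer cell markers Clec4f and Vsig4 gave 0.69 ± 0.22 and 0.36 ± 0.15 (SE; edgeR adjusted p = 0.0504, 0.0675 and 0.191). None of 8 cholangiocyte markers passed, with the lowest p in Cftr at -0.27 ± 0.10 (SE; edgeR adjusted p = 0.128). Among 9 tested markers of portal fibroblasts and mesothelium Entpd2 rose 1.28-fold (adjusted p = 0.000348), and among 8 smooth muscle markers Tagln was the 1 gene that rose.

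**Figure D3:**
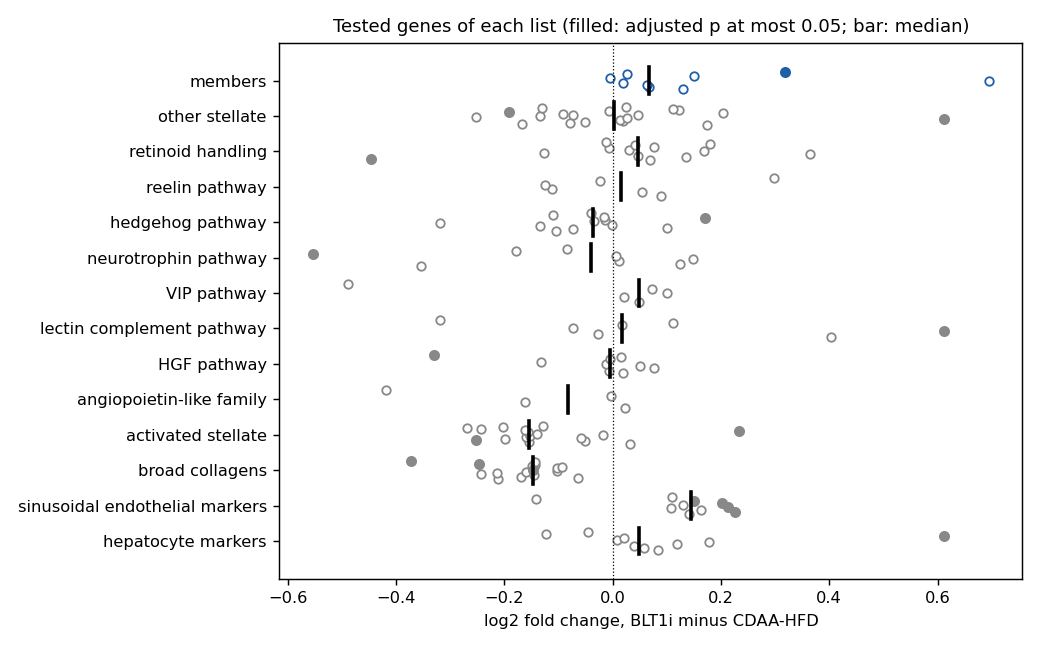
Log2 fold change (horizontal axis) of each tested gene in 14 gene lists, the 9 genes in blue at the top and the other lists in grey. Points are filled where the adjusted p was at most 0.05, and vertical bars mark the median of a list, which is 0.07 for the 9 genes, 0.15 for sinusoidal endothelial markers and -0.15 for the broad collagen list.

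The genes were next compared with collagen across mice. For each mouse a collagen score was formed as the mean log2 CPM of Col1a1, Col1a2, Col3a1, Col5a1 and Col5a2. CDAA-HFD mice had scores of 8.30 to 8.69 (median 8.51) and BLT1i mice of 8.14 to 8.57 (median 8.33), and no BLT1i mouse lay above the highest CDAA-HFD mouse. The score was centred on the mean of each group, and group was a term in the fit, so that each slope describes mice within a group. None of the 9 genes had a slope that passed, against 1.85% of all tested genes (edgeR, adjusted p of at most 0.05), and 3 of 9 had an unadjusted p of at most 0.05, against 14.4% of all genes. With limma-voom and a weight per mouse 1 of the 9 passed, Vipr1, in a fit where 606 of 13993 genes passed.

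Hhip had the steepest slope, -2.65 ± 0.76 on the log2 scale per unit of the score (SE; edgeR adjusted p = 0.0754). Pearson's r with the score over 20 mice was -0.609 and Spearman's rho -0.600 (permutation p = 0.00675 and 0.00853, two-sided, permuted within groups, the first adjusted to 0.0911 over 54 relations of these genes with 6 scores). Within the CDAA-HFD mice r was -0.681 and within the BLT1i mice -0.554, and without the 2 mice farthest from the median score, 38 and 75, it was -0.563. Of 13979 other genes 558 (3.99%) had an r at least as far from 0 as that of Hhip. The slope passed when BLT1i mouse 73 was left out (-3.12, edgeR adjusted p = 0.0355) and with Col1a1 alone as the score (-1.996, edgeR adjusted p = 0.0423). With any other single mouse left out it did not pass (edgeR adjusted p up to 0.256). In 8 of 10 alternative fits it did not pass either. Examples are limma-voom with a weight per mouse (-2.08, adjusted p = 0.12) and the broad collagen list (-3.78, edgeR adjusted p = 0.166).

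Vipr1 had a slope of -0.62 ± 0.23 (SE; edgeR adjusted p = 0.206). Its r was -0.510 and its rho -0.527 (permutation p = 0.0297 and 0.0231, the first adjusted to 0.211). Within the CDAA-HFD mice r was -0.225 and within the BLT1i mice -0.722, and without mice 38 and 75 it was -0.447. The slope passed with limma-voom and a weight per mouse (-0.72, adjusted p = 0.0444) and when the group term was left out (-0.99, edgeR adjusted p = 0.0134), a fit that also takes in the difference between the groups. It did not pass in the other 8 of 10 alternative fits. With single mice left out it never passed (edgeR adjusted p from 0.102 to 0.367).

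Angptl6 had a slope of -1.21 ± 0.56 (SE; edgeR adjusted p = 0.320), which was -0.726 without BLT1i mouse 72 (edgeR adjusted p = 0.661), and r was -0.383 (permutation p = 0.114, adjusted 0.398). Within the CDAA-HFD mice r was 0.0658, and within the BLT1i mice it was -0.672. For Hgf, Ecm1 and Reln the slopes were -0.20, -0.15 and -0.11 (edgeR adjusted p = 0.667, 0.721 and 0.859). For Colec11, Lrat and Ngfr they were 0.33, 0.17 and 0.05 (edgeR adjusted p = 0.579, 0.862 and 0.948), that of Colec11 being 0.166 without CDAA-HFD mouse 36. Lrat, the classic marker of vitamin A storage, thus had an r of 0.115 with the collagen score (permutation p = 0.627, adjusted 0.84) and a rho of 0.0182.

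Whether a slope differed between CDAA-HFD and BLT1i mice was tested as an interaction. With edgeR none of the 9 genes passed, and 0% of all tested genes did. At an unadjusted p of at most 0.05 there were 0 of the 9 and 10.4% of all genes, and limma-voom with a weight per mouse likewise called 0 of the 9. The unequal r of Vipr1 and Angptl6 in the 2 groups is therefore not shown to be a difference.

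**Figure D4:**
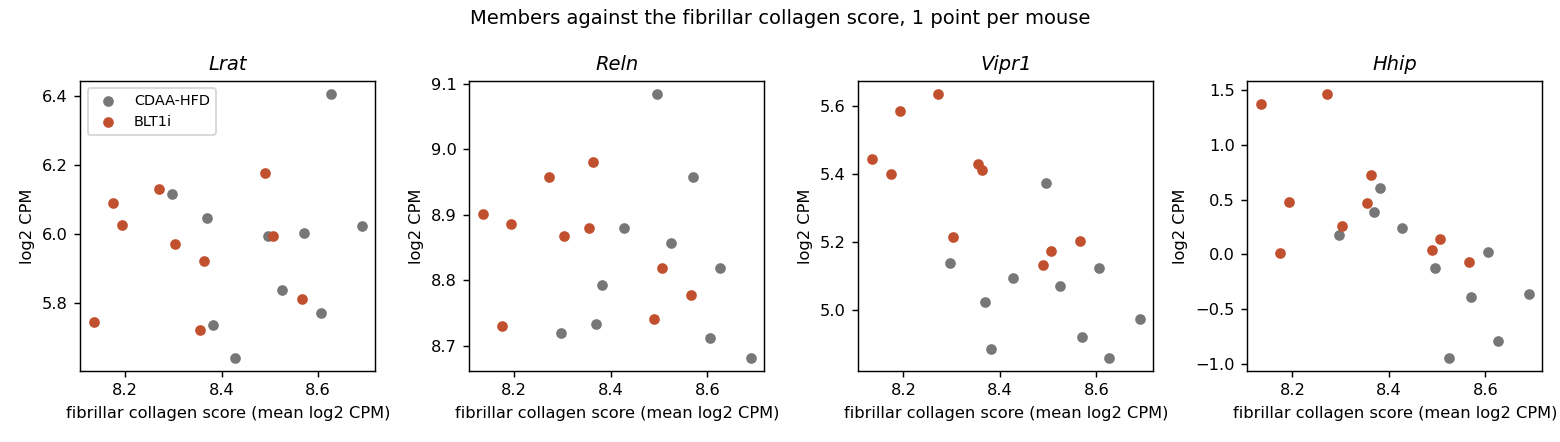
Log2 CPM of Lrat, Reln, Vipr1 and Hhip (vertical axes) against the fibrillar collagen score (horizontal axes, mean log2 CPM), 1 point per mouse, CDAA-HFD in grey and BLT1i in red. With group means removed, r was -0.609 for Hhip, -0.510 for Vipr1 and 0.115 for Lrat.

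Besides the collagen score, 5 further scores were set against each of the 9 genes, which makes 54 relations. These scores were the means of the other stellate, activated stellate, sinusoidal endothelial, hepatocyte and ribosomal protein genes. For the remaining lists r was also computed, without a test and outside the adjustment below. Values of similar size occurred there, such as 0.702 for Lrat with the retinoid genes and 0.699 for Colec11 with the VIP pathway. Angptl6 had -0.708 with the neurotrophin genes, and Hgf 0.661 with the cholangiocyte markers. Of the 54 relations 9, or 16.7%, had an unadjusted p of at most 0.05, which is near the 17.7% found when all other tested genes outside the scores were set against the same 6 scores. After Benjamini-Hochberg adjustment over the 54 relations 2 kept it. Hgf went with the other stellate genes (r = 0.744, rho = 0.733, permutation p = 0.00036, adjusted 0.0113), at 0.708 within the CDAA-HFD mice, 0.768 within the BLT1i mice and 0.706 without the 2 farthest mice. An r at least as far from 0 was found for 292 of 13964 other genes (2.09%). Angptl6 ran against the activated stellate genes (r = -0.748, rho = -0.788, permutation p = 0.00042, adjusted 0.0113), at -0.646 and -0.813 within the groups and -0.834 without the 2 farthest mice, and 58 of 13967 other genes (0.415%) had an r at least as far from 0.

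Vipr1 also ran against the activated stellate genes (r = -0.641, rho = -0.655, permutation p = 0.00491, adjusted 0.0884), at -0.619 and -0.656 within the groups. It went with the sinusoidal endothelial markers (r = 0.490, rho = 0.436, permutation p = 0.0313, adjusted 0.211), whereas Hgf went against them (r = -0.482, rho = -0.521, permutation p = 0.0351, adjusted 0.211). For Vipr1 r was 0.565 within the CDAA-HFD mice, 0.426 within the BLT1i mice and 0.536 without the 2 farthest mice, and 1963 of 13974 other genes had an r at least as far from 0 as 0.490. For Hgf it was -0.160, -0.817 and -0.243 in the same order, so that relation was weaker without the 2 farthest mice. Whether r of Hgf differed between the groups was not tested. Hgf likewise went against the hepatocyte markers (r = -0.558, rho = -0.606, permutation p = 0.0137, adjusted 0.148), at -0.280 within the CDAA-HFD mice, -0.812 within the BLT1i mice and -0.391 without the 2 farthest mice. Colec11 had an r of 0.637 with 81 ribosomal protein genes (rho = 0.515, permutation p = 0.0269, adjusted 0.211). It was 0.655 within the CDAA-HFD mice, 0.570 within the BLT1i mice and 0.297 without the 2 farthest mice. With the other stellate genes Ngfr, Hhip, Reln and Vipr1 had r of 0.0695, 0.0457, 0.0172 and -0.0353, and Lrat and Angptl6 had r of -0.397 and -0.435 (permutation p = 0.0734 and 0.0753, both adjusted 0.33).

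Among themselves the 9 genes did not form one block. Of 36 pairs 24 had a positive r on group-centred log2 CPM, the median r was 0.143, and r ran from -0.507 to 0.624. An unadjusted p of at most 0.05 was found for 7 pairs and none kept it after adjustment over the 36. The matching shares over pairs of all tested genes were not computed, so these counts have no background and the pairs are given as a description. The highest was Vipr1 with Angptl6 (r = 0.624, rho = 0.679, permutation p = 0.00554, adjusted 0.199), at 0.687 and 0.585 within the groups and 0.637 without the 2 farthest mice. Ngfr went with Ecm1 (r = 0.494, rho = 0.600, permutation p = 0.0218, adjusted 0.211), at 0.488 without the 2 farthest mice. Reln went with Ecm1 and Vipr1 (r = 0.515 and 0.497, rho = 0.364 and 0.400, permutation p = 0.0333 and 0.0275, both adjusted 0.211), but without mice 32 and 34 r was 0.206 and 0.281. Both are CDAA-HFD mice, and within the BLT1i mice r was 0.338 with Ecm1 and 0.636 with Vipr1. The remaining 2 positive pairs were also weaker with mice left out, with r of 0.456 for Colec11 with Angptl6, which was 0.0486 without mice 36 and 74, and 0.463 for Vipr1 with Ecm1, which was 0.0862 without mice 32 and 78 (rho = 0.273 for both, permutation p = 0.0352 and 0.0437, adjusted 0.211 and 0.225). Lrat and Hgf ran against each other (r = -0.507, rho = -0.545, permutation p = 0.0221, adjusted 0.211), but r was -0.258 without the CDAA-HFD mice 33 and 35. Within the BLT1i mice it was -0.331.

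**Figure D5:**
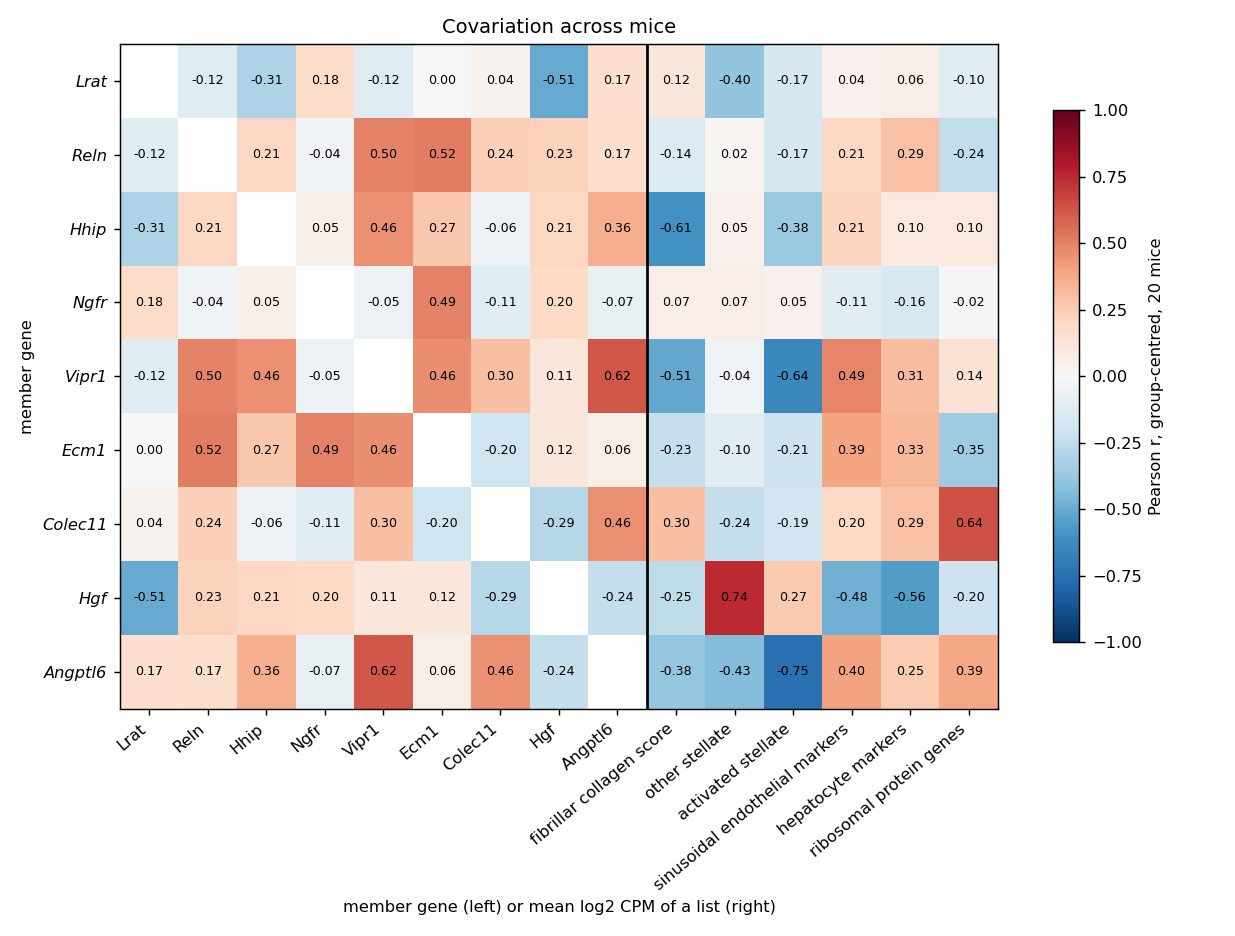
Pearson's r on group-centred log2 CPM over 20 mice (colour and printed value, from -1 in blue to 1 in red) between the 9 genes (left columns) and between each gene and the mean log2 CPM of 6 lists (right columns). The strongest cells are Hgf with the other stellate genes, at 0.744, and Angptl6 with the activated stellate genes, at -0.748.

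For each of the 9 genes the 2 most similar genes were taken, by Pearson's r on group-centred log2 CPM over 20 mice, among 12984 named genes with a mean of at least 1 CPM. They are given as a description without a test, since the highest of so many values is high by selection. Vipr1 was most like Ptprb, one of the sinusoidal endothelial markers (r = 0.792), and Herc1 (0.781). Hgf was most like Plekhh2 (0.874) and Glis3 (0.845). Lrat was most like Lmf1 (0.765) and Rfwd3 (0.754), and Reln most like Zc3hc1 (0.779) and Slc16a7 (0.759).

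Hhip was most like Twnk (0.765) and Amy1 (0.756), an amylase gene with close copies whose reads can be shared, and Angptl6 like Clpb (0.887) and Mmadhc (0.886). Ngfr was nearest to Cenpf (0.789) and Racgap1 (0.740), which act in cell division. Ecm1 was nearest to Hsdl2 (0.859) and Pxmp4 (0.840), which encode peroxisomal proteins. Colec11 was nearest to Ndufa2 (0.916), a subunit of respiratory complex I, and the ribosomal protein gene Rplp2 (0.906).

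Total counts per CDAA-HFD mouse lay between 20994073 and 27456678, and per BLT1i mouse between 18467060 and 26078285. CDAA-HFD mouse 36 had the lowest median correlation with its own group, 0.987, and the others lay between 0.989 and 0.992. At this depth Reln had 8691 to 14412 counts per mouse, Lrat 971 to 1893, Vipr1 617 to 1245 and Hhip 11 to 60. The coefficient of variation between mice was 36.3% and 45.9% for Hhip in the 2 groups, against 9.05% and 5.93% for Reln.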

How the data were processed

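Whole liver RNA of 20 mice was sequenced in pairs with a stranded total RNA kit, per the labels' protocols. The labels list 40 samples, 2 lanes per mouse, and the tables hold 1 column per mouse, which was the replicate (n = 10 per group). Sources used here do not give how lanes were merged, the aligner or the counting program. The build was GRCm39, per the submitters' processing notes. Raw counts of protein-coding genes as the authors deposited them were used for the main tests, besides deposited FPKM rounded to whole numbers, treated as a score, of which 43.3% were 0. Of 21500 identifiers 21457 were matched to a symbol, and the 43 others held 0.00776% of the counts.

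Genes were filtered with filterByExpr, scaled by TMM and fitted in edgeR 4.0.16 under R 4.3.3, with a two-sided robust quasi-likelihood test and Benjamini-Hochberg adjustment over 13993 genes at 0.05. Scores are means of log2 CPM (prior count 2). Slopes used the group-centred collagen score with a group term. Correlations have two-sided permutation p values (100000 resamples within groups). Confidence intervals cover 95%. The methods were tested on simulated data. In all 90 within-group pairs of mice the counts differed beyond sampling noise (chi-square over its degrees of freedom 6.17 to 30.9). The labels give no cage, batch or collection order.

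The members and the lists were chosen with earlier results of these data known. Named genes are the 9 members, Col1a1, Col1a2 and Col3a1, the 2 or 3 genes of lowest p in each pathway list (3 where a gene passed), the first in each marker list and the 2 genes most like each member. Others were named after their values were seen. Some genes that this rule names are not reported here. Alternatives were other scalings and filters, DESeq2 1.42.0, limma-voom 3.58.1 with each mouse weighted, limma-trend on log2 of rounded FPKM plus 1, covariates, 1 surrogate variable from sva 3.50.0, other collagen scores, and each mouse left out in turn. Promoters are from RefSeq (GRCm38.p6), matched by symbol for 9 of 9 members.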

Additional observations from a re-analysis of the deposited data

Results flagged for a closer look

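The levels of the 9 genes were looked at in 18 groups of 10 mice, and in 2 of them a single mouse stood apart from the rest by Dixon's criterion at the 95% level. The nominal rate of this criterion is about 1 group in 20, for independent groups of normally distributed values. These 18 groups share the same 20 mice, and the share over all tested genes was not computed. Vipr1 was at 41.4 CPM in CDAA-HFD mouse 32, above the next mouse at 35.1 CPM. This mouse also had the highest Reln (542.6 CPM), Ecm1 (140.2 CPM) and Angptl6 (6.29 CPM) of its group. Colec11 was at 25.5 CPM in CDAA-HFD mouse 36, below the next mouse at 35.01 CPM. Mouse 36 also had the lowest Angptl6 (2.77 CPM) and the highest Hhip (1.43 CPM) of its group, and the lowest median correlation with the other mice of its group, 0.987.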

How the results depend on the processing

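Of the 9 genes 1 passed when any single mouse was left out, with 565 to 889 genes called. The count of members was 0 on rounded FPKM (519 genes), 0 with the immediate early covariate (87 genes), 0 with the sinusoidal endothelial covariate (154 genes) and 2 at a threshold of 0.1 (1306 genes), where Hhip joined Vipr1. Hhip had no value on rounded FPKM, being 0 in every mouse. For the slope on collagens 1 member passed with Col1a1 alone (352 genes called), 1 with limma-voom and a weight per mouse (606 genes) and 2 without the group term (779 genes). The genes called for the slope were 13 with the broad collagen list, 139 with library totals and 461 with the other stellate covariate. With 1 mouse left out 0 to 1 members and 72 to 386 genes passed, the fewest without BLT1i mouse 72. The cause of these shifts was not tested. The endothelial and ribosomal covariates were added after seeing the data.

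Directions turned where values were near 0 or a covariate was added. The log2 fold change was -0.001 for Reln and -0.01 for Hgf with library totals, -0.039 for Hgf, -0.027 for Colec11 and 0.261 for Lrat with the immediate early covariate, 0.006 for Lrat with the other stellate covariate, and -0.01 for Reln and -0.142 for Angptl6 with the endothelial covariate. None of these values passed. With single mice left out it ran from -0.038 to 0.052 for Lrat and from -0.008 to 0.036 for Hgf. The slope was -0.071 for Lrat and -0.008 for Ngfr with the broad collagen list and -0.218 for Ngfr without the group term. With single mice left out it ran from -0.037 to 0.329 for Lrat and from -0.167 to 0.135 for Ngfr. No paired analysis was possible because the groups share no replicate number. Depth limits Hhip most, with 11 to 60 counts per mouse.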
